A study of Homo sapiens and Mus musculus with 12 samples.

Results

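The 7 genes ZEB1, ZEB2, SNAI1, SNAI2, TWIST1, VIM and CDH2, the best known drivers and markers of epithelial-mesenchymal transition (EMT), were examined for nearby binding sites of SPDEF and GATA6 in HPAF-II, an established human pancreatic ductal adenocarcinoma (PDA) cell line. A peak was taken as a member when it lay on a gene or within 50 kb of either end. Of 2775 SPDEF peaks 0 were members, and of 10670 GATA6 peaks 3 were, so the members were 3 of the 13445 peaks in both human lists. The genes were chosen by name, with earlier results of these data known.

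The study profiled chromatin by CUT&RUN, in which an antibody guides a nuclease to its target and the DNA fragments cut free are sequenced. All 8 human libraries came from HPAF-II cells that carry HA-hSPDEF, human SPDEF with an HA tag. An anti-HA antibody was used for 3 of them (the SPDEF list), anti-GATA6 for 3 (the GATA6 list), IgG for 1 and anti-H3K4me3 for 1. Untagged cells are not among the samples, so the GATA6 sites too were read in cells carrying the tagged factor. The other 4 libraries, from a mouse line, were not used. SPDEF and GATA6 each have 1 list of positions without scores or replicate values, and lists for IgG and H3K4me3 were not analysed here. No difference could therefore be set against replicate error, the depth is unknown, and every interval given covers counting error only. The lists hold no RNA levels: whether HPAF-II cells express the 7 genes was not measured, nor could the cell line label be checked against markers.

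EMT is the change by which epithelial cells loosen their junctions and take on a motile, mesenchymal form. ZEB1 and ZEB2, zinc-finger homeobox proteins, SNAI1 (Snail) and SNAI2 (Slug), zinc-finger proteins, and TWIST1, a basic helix-loop-helix protein, are transcription factors that repress epithelial genes such as the E-cadherin gene. VIM encodes vimentin, the intermediate filament of mesenchymal cells, and CDH2 encodes N-cadherin, the adhesion molecule that replaces E-cadherin. SPDEF is an ETS-family factor of mucus-secreting epithelium and GATA6 an endodermal factor that marks the classical, epithelial subtype of PDA. The question put to the lists was whether either factor lies at the genes of the opposite, mesenchymal programme.

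Of the 4 genes with no peak of either list on them or within 50 kb, the 3 matched in the RefSeq promoter table used here (ZEB1, ZEB2 and VIM) are shown, as sequence at which no site was listed. Each line gives the 250 bases before the most upstream start that RefSeq lists (GRCh38.p14), 5′ to 3′ on the strand of the gene. They lie at chr10:31318167-31318416 (plus strand), chr2:144520120-144520369 (minus strand) and chr10:17227991-17228240 (plus strand), in that order. These positions are of another build than the peaks, and the genes were matched by name. Capitals mark GGAA or GGAT, the core letters of ETS motifs, and GATA, on either strand, where the matches may overlap.
ZEB1: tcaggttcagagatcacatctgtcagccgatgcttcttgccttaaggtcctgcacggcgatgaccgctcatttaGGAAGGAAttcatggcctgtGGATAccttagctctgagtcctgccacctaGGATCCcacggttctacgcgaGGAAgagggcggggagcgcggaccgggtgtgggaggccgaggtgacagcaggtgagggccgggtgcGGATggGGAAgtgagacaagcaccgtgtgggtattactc
ZEB2: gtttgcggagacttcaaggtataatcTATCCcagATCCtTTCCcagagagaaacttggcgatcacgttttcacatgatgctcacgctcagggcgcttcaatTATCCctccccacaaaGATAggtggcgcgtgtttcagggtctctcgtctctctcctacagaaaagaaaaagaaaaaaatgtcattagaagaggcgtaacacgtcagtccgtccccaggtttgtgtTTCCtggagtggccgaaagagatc
VIM: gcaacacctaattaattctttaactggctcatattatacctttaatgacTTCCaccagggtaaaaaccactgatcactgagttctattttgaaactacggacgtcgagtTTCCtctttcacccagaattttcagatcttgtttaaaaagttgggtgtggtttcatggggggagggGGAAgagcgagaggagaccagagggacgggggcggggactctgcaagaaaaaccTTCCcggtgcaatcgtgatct

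The bare cores were present in these promoters, GATA in VIM excepted. GGAA or GGAT matched 8 times in the ZEB1 promoter, 5 in that of ZEB2 and 4 in that of VIM. GATA matched 1 time for ZEB1, 3 times for ZEB2 and 0 times for VIM. Such short cores are common. Of 35116 RefSeq promoter windows of the same length, 97.4% held GGAA or GGAT (median 4 matches) and 45.6% held GATA. Longer forms matched in none of the 3 promoters: CCGGAT, a form SPDEF prefers, is held by 5.85% of all windows, CCGGAA by 14.5%, and AGATAA or TGATAA by 14.6%. The missing letters describe these windows only. Promoters of TWIST1, SNAI1, SNAI2 and CDH2 are not shown.

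ZEB1 and ZEB2 had no peak of either factor on the gene or within 50 kb. ZEB1 spans 211 kb of chromosome 10 (hg19, 31608 to 31819 kb), and its window of 311 kb held 0 SPDEF and 0 GATA6 peaks. Consecutive windows of that length over the genome held at least 1 SPDEF peak in 17.7% of cases and at least 1 GATA6 peak in 45.3%. ZEB2 spans 137 kb of chromosome 2 (145141 to 145278 kb), and its window of 237 kb likewise held 0 and 0. For windows of 237 kb the shares with a peak were 14.3% for SPDEF and 38.8% for GATA6. An empty window of either size was therefore the more frequent outcome for both factors over the genome.

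The surroundings of the ZEB genes differed in where the first peaks lay. Nearest to ZEB1 was a place 287 kb before its 5′ end that carried both factors, an SPDEF peak of 170 bp (chr10:31321104-31321273) inside a GATA6 peak of 261 bp (chr10:31321029-31321289). Of windows as long as ZEB1, 69.2% had a nearer GATA6 peak and 33.4% a nearer SPDEF peak. ZEB2 had a GATA6 peak of 703 bp 75.7 kb before its 5′ end (chr2:145353725-145354427), wider than 78.3% of GATA6 peaks and without an SPDEF peak. The nearest SPDEF peak to ZEB2 was 1571 kb away, the farthest of the 7 genes, and 70.0% of windows of that length had a nearer one.

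SNAI1 and SNAI2 each had 1 GATA6 peak and 0 SPDEF peaks within 50 kb. The SNAI2 peak (chr8:49834095-49834474, 380 bp) lay just outside the 5′ end of the gene, which is read toward lower coordinates and spans 49830 to 49834 kb. Since gene bounds are known here to 1 kb, its place is given as within 1 kb of the 5′ end, and whether it covers the first exon was not determined. It was wider than 54.9% of GATA6 peaks. Among windows of 4 kb tiled over the genome, 2.09% had a GATA6 peak on them or within 1 kb. That share is for 1 gene, the nearest of the 7 to a GATA6 peak, at a limit chosen after seeing the data. The windows are not centred on genes, and the share at 5′ ends of genes was not computed. Within 50 kb the comparison is looser: 22.4% of windows of 104 kb held a GATA6 peak and 7.17% an SPDEF peak. No SPDEF peak overlapped the SNAI2 peak, and the nearest one lay 107 kb from it (chr8:49727182-49727388), on the other side of the gene and itself on a GATA6 peak.

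The SNAI1 peak (chr20:48585699-48585786) lay 13.2 kb before the 5′ end of a gene of 7 kb (48599 to 48606 kb). At 88 bp it was among the narrowest of its list, where 2.50% of peaks were narrower and 2.99% were under 100 bp. Windows of 107 kb held a GATA6 peak in 22.9% of cases and an SPDEF peak in 7.35%. Chromosome 20 is rich in peaks of both lists, at 6.14 GATA6 and 2.82 SPDEF peaks per Mb against 3.45 and 0.896 over the genome. On that chromosome alone the shares were 35.6% and 20.3%. The nearest SPDEF peak to SNAI1 (chr20:48429014-48429596, 583 bp) was 169 kb before the gene and overlapped a GATA6 peak. On that side RNF114 is the next protein-coding gene in RefSeq order.

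TWIST1, a gene of 3 kb on chromosome 7 (19155 to 19158 kb), had 0 peaks of both lists within 50 kb. Of windows of 103 kb, 7.06% held an SPDEF peak and 22.1% a GATA6 peak. The nearest GATA6 peaks were single and distant, 219 kb beyond the 3′ end (chr7:18935216-18935662, 447 bp) and 287 kb before the 5′ end (chr7:19444877-19445276, 400 bp). HDAC9, a histone deacetylase gene known to hold distant enhancers of TWIST1, is the next protein-coding gene on the 3′ side; whether the peak lies in it was not determined. The nearest SPDEF peak was 606 kb away.

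VIM and CDH2, the structural genes, had 0 SPDEF peaks, and 1 GATA6 peak lay beside CDH2. VIM spans 10 kb of chromosome 10 (17270 to 17280 kb) and its window held 0 peaks of either list, where 7.56% of windows of 110 kb held an SPDEF peak and 23.3% a GATA6 peak. The nearest GATA6 peak to VIM was wide, 987 bp, more than 90.4% of its list, and lay 112 kb before the gene (chr10:17157406-17158392). The nearest SPDEF peak was 165 kb before it (chr10:17104811-17105115) and overlapped a GATA6 peak of 936 bp. CDH2 spans 228 kb of chromosome 18 (25530 to 25758 kb). Its GATA6 peak of 339 bp (chr18:25501673-25502011) lay 28.0 kb beyond the 3′ end and thus 256 kb from the 5′ end. Windows of 328 kb held a GATA6 peak in 46.7% of cases and an SPDEF peak in 18.2%. Chromosome 18 has few SPDEF peaks, 0.192 per Mb, and the nearest to CDH2 was 1469 kb away.

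**Figure D1:**
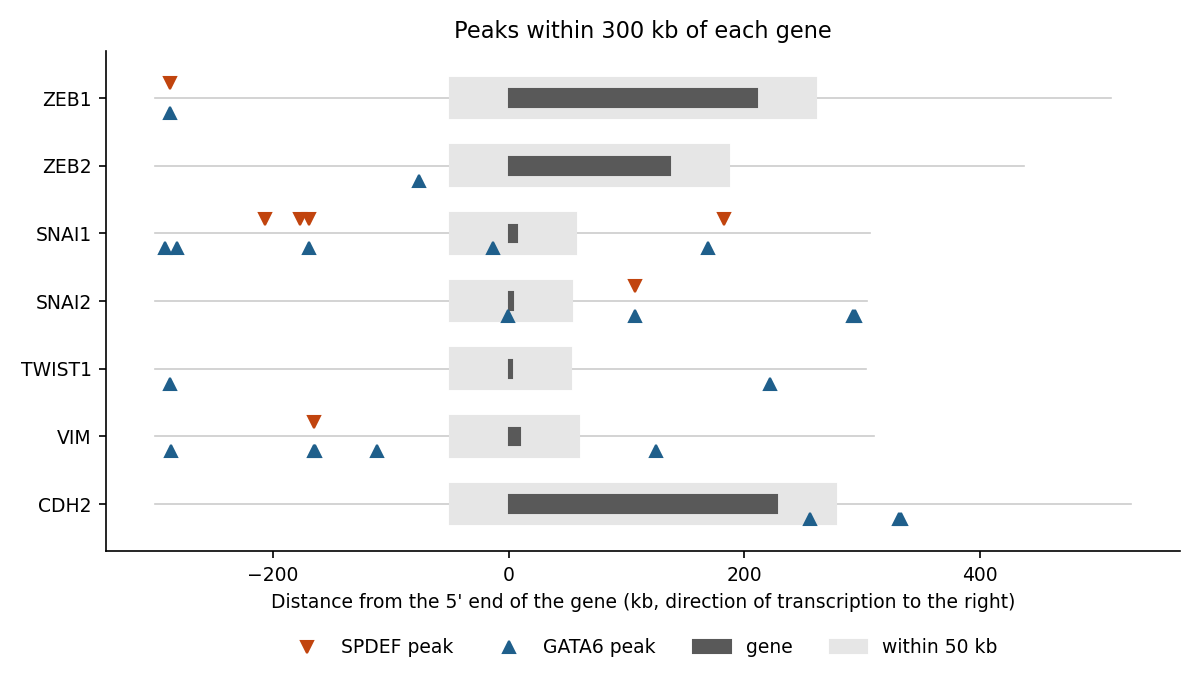
Peaks within 300 kb of each of the 7 genes, drawn to scale from the 5′ end with transcription to the right; down-pointing marks are SPDEF peaks, up-pointing marks GATA6 peaks, dark bars the genes and light bars the windows of 50 kb on each side. The light bars hold 0 SPDEF marks and 3 GATA6 marks, beside SNAI1, SNAI2 and CDH2; the SNAI2 gene bound is known to 1 kb.

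Summed over the 7 genes, the windows covered 1.30 Mb. At the rate of the whole list this length gives 1.16 SPDEF peaks, and 0 were found (exact 95% Poisson interval 0 to 3.69). A count of 0 in 1.30 Mb allows up to 2.31 peaks per Mb (the limit of 3 counts), which is above the 0.896 per Mb of the whole list. A lower density of SPDEF peaks at these genes than elsewhere was thus not detectable with a list of this length. For GATA6, 3 peaks were found against 4.48 given by the length, a ratio of 0.670 (0.138 to 1.96). Counted by gene, 0 of 7 had an SPDEF peak where windows of the same sizes give 0.793, and 3 of 7 had a GATA6 peak where they give 2.21. On the genes themselves, without flanks, both lists held 0 peaks in 600 kb, where length gives 0.538 SPDEF and 2.07 GATA6 peaks.

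The widths of the 3 GATA6 peaks were 88 bp (SNAI1), 339 bp (CDH2) and 380 bp (SNAI2), beside a median of 346 bp for all GATA6 peaks. None overlapped an SPDEF peak (0 of 3, 95% Wilson interval 0 to 56.1%), where 16.1% of nuclear GATA6 peaks did, a share inside that interval. The next GATA6 peak was 156 kb away for SNAI1, 107 kb for SNAI2 and 74.2 kb for CDH2. With no SPDEF member, the share of SPDEF members on GATA6 peaks has no value.

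The distance to the nearest peak gives a value for every gene. For SPDEF it ran from 103 kb (SNAI2) through 165 kb (VIM), 169 kb (SNAI1), 287 kb (ZEB1), 606 kb (TWIST1) and 1469 kb (CDH2) to 1571 kb (ZEB2). Every one of the 7 lay beyond 100 kb, where windows as long as the genes with flanks of 100 kb give 1.13 genes with an SPDEF peak. For windows as long as each gene the median distance was between 676 kb (CDH2) and 786 kb (TWIST1), so 5 genes were nearer to an SPDEF peak than the median window and 2 farther. The nearest SPDEF peak overlapped a GATA6 peak at 7 of 7 genes, and over all nuclear SPDEF peaks the share was 64.7%. No interval was computed for 7 of 7, and a difference from that share was not tested. For GATA6 the order was SNAI2, SNAI1, CDH2, ZEB2, VIM, TWIST1 and ZEB1. SNAI1 and SNAI2 lay below the lower quartile of windows of their length (57.3 and 58.8 kb), and the other 5 lay between the quartiles.

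**Figure D2:**
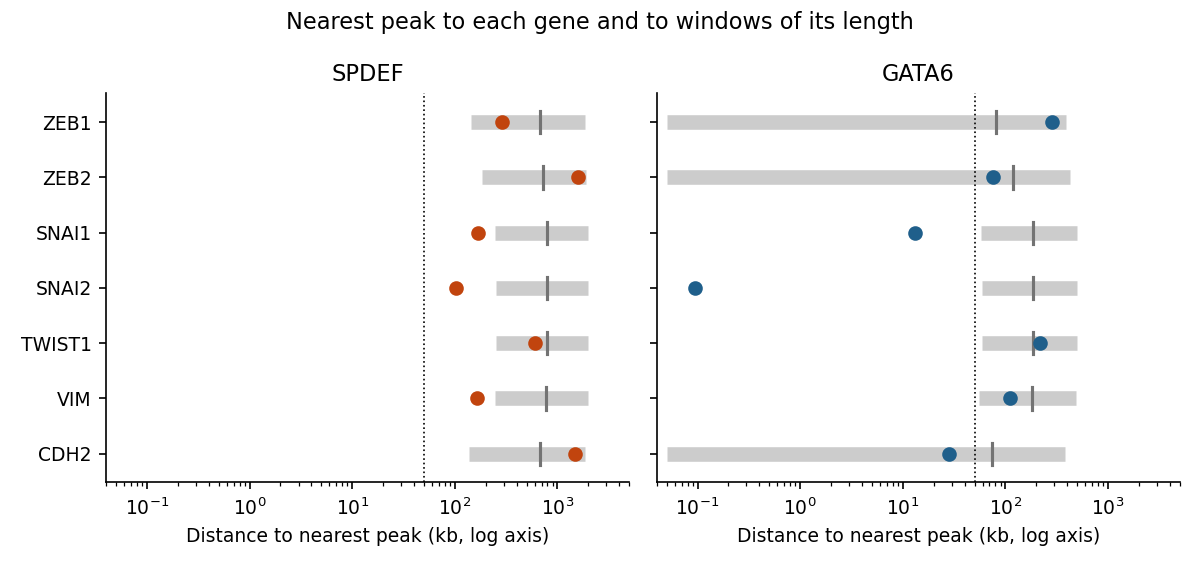
Distance from each gene to its nearest SPDEF peak (left) and GATA6 peak (right) in kb on a log axis; grey bars run from the lower to the upper quartile, with a tick at the median, for windows of the gene's length tiled over the genome. Lower quartiles of 0 (ZEB1, ZEB2 and CDH2 for GATA6) are drawn from the left edge, the dotted line marks 50 kb, and all 7 SPDEF points lie to its right.

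Farther out, both factors were present around most of the genes. Within 500 kb there were 9 SPDEF peaks, 6 of them around SNAI1 and 1 each around ZEB1, SNAI2 and VIM. There were 0 around ZEB2, TWIST1 and CDH2. Length gives 6.81 SPDEF peaks and the rates of the chromosomes give 8.21. Thus 4 genes had at least 1 SPDEF peak, where windows of the same sizes give 2.86. GATA6 peaks within 500 kb numbered 10 around SNAI1, 7 around ZEB1, 6 around VIM, 4 each around ZEB2 and SNAI2, 3 around CDH2 and 2 around TWIST1. All 7 genes had at least 1, where windows of the same sizes give 5.40. The total of 36 stood against 26.2 given by length and 29.6 at the rates of the chromosomes.

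The zone between 50 and 500 kb, a limit chosen after seeing the data, held 33 GATA6 peaks against 21.7 (ratio 1.52, 1.05 to 2.13). It held 9 SPDEF peaks against 5.65 (1.59, 0.729 to 3.03). For GATA6 the ratio was 0.415 (0.0105 to 2.31) between 50 and 100 kb and 1.38 (0.663 to 2.54) between 50 and 200 kb. It was 1.59 (1.01 to 2.38) between 200 and 500 kb and 1.28 (0.873 to 1.82) between 500 and 1000 kb. Without SNAI1, which lies on the peak-rich chromosome 20, the zone held 24 GATA6 peaks against 18.6 (1.29, 0.826 to 1.92) and 3 SPDEF peaks against 4.84 (0.620, 0.128 to 1.81). Peaks also came in groups, such as 4 GATA6 peaks between 31287904 and 31293925 on chromosome 10 before ZEB1, so the Poisson intervals are too narrow.

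Sites shared by the factors occurred in these surroundings at shares close to those of the lists, with wide intervals. Of the 9 SPDEF peaks within 500 kb, 6 overlapped a GATA6 peak (66.7%, 95% Wilson interval 35.4 to 87.9), beside 64.7% over the nuclear genome. They were 3 of 6 around SNAI1 and the single peaks around ZEB1, SNAI2 and VIM. Of the 36 GATA6 peaks, 6 overlapped an SPDEF peak (16.7%, 7.87 to 31.9), beside 16.1%. The widest GATA6 peak in these surroundings (chr20:48315669-48317522, 1854 bp, wider than 99.1% of its list) lay 281 kb before SNAI1 and had no SPDEF peak. The next, of 1302 bp (chr2:145699826-145701127), lay 422 kb before ZEB2 and had none either.

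**Figure D3:**
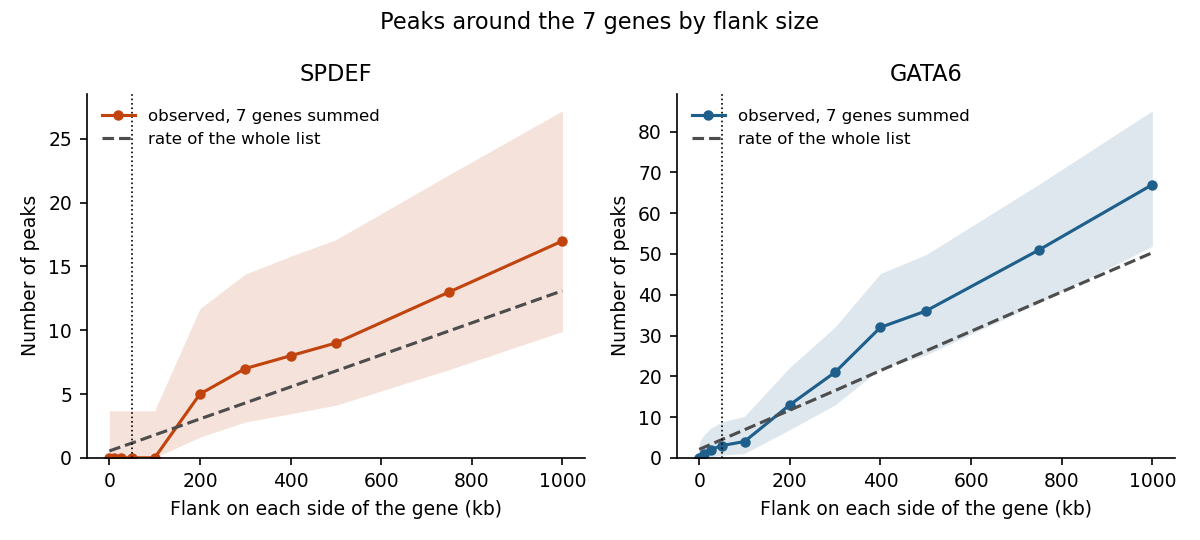
Number of SPDEF (left) and GATA6 (right) peaks summed over the 7 genes as the flank on each side grows from 0 to 1000 kb; shading is the exact 95% Poisson interval of the count, the dashed line the number given by the rate of the whole list, and the dotted line marks 50 kb. SPDEF counts stay at 0 up to 100 kb, and GATA6 counts pass the dashed line at 200 kb, with 13 peaks against 11.7.

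Other genes of the EMT pathway were placed only by cytogenetic band, because their hg19 positions were not used here. A band holds many genes, and its count says nothing about a single one. A list of 30 further genes and the 7 fell into 32 bands. More SPDEF peaks than length gives were found in 19 of the 32 bands, where 34.2% of all 862 bands exceed that number, and more GATA6 peaks in 22, where 43.0% do. In the 25 bands that hold none of the 7 genes, the median ratios of observed to length-given peaks were 1.66 for SPDEF and 1.45 for GATA6, beside 0.485 and 0.829 over all bands. The 862 bands include centromeric, variable and stalk bands and chromosome Y, which the tiled windows left out. Among the 862, 298 bands held 0 SPDEF peaks and 84 held 0 GATA6 peaks. The parts of gene density, band type and band length in these ratios were not tested.

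Counts in the bands of the 7 genes differed between the factors. GATA6 exceeded the length-given number in 6 of 7, where 43.0% of all 862 bands do. These ran from 7p21.1 with TWIST1 (47 peaks, ratio 3.10, 2.28 to 4.12) to 8q11.21 with SNAI2 (16, 1.13, 0.647 to 1.84). Most of the 47 peaks lay far from TWIST1, which had 2 GATA6 peaks within 500 kb and 10 within 1000 kb. The intervals of 8q11.21, 10p13 with VIM (0.740 to 1.83) and 10p11.22 with ZEB1 (0.999 to 2.66) include 1. GATA6 was below that number in 18q12.1 with CDH2 (17, 0.641, 0.373 to 1.03). SPDEF exceeded it in 3 of 7, where 34.2% of all bands do. Those bands were 20q13.13 with SNAI1 (11 peaks, 3.61, 1.80 to 6.46), 7p21.1 (7, 1.78, 0.714 to 3.66) and 10p11.22 (4, 1.44, 0.392 to 3.69). The ratios use the rate of the whole list. Against its own chromosome 20q13.13 was close to the rate, with 3.24 SPDEF and 6.47 GATA6 peaks per Mb beside 2.82 and 6.14 over chromosome 20. SPDEF was below it in 8q11.21 (2 peaks, 0.544), 10p13 (2, 0.438) and 2q22.3 with ZEB2 (1, 0.243), with intervals that include 1. Band 18q12.1 held 0 SPDEF peaks against 6.90 (upper limit of the ratio 0.535). That number too is at the rate of the whole list, 0.896 per Mb. Chromosome 18 has 0.192 SPDEF peaks per Mb, so few peaks are a trait of the chromosome and not of this band alone. In 2q22.3 GATA6 peaks were frequent (31, ratio 1.96, 1.33 to 2.78) beside the single SPDEF peak.

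By role, TGF-beta ligands lay in bands with more GATA6 peaks than length gives, TGFB3 in 14q24.3 (47 peaks, ratio 2.48), TGFB2 in 1q41 (60, 1.81) and TGFB1 in 19q13.2 (29, 1.79). Of the receptor bands, 3p24.1 with TGFBR2 had 24 GATA6 and 2 SPDEF peaks, and 9q22.33 with TGFBR1 had 4 and 0. Among the signal transducers, SMAD3 lies in 15q22.33, the highest GATA6 ratio of the list (8 peaks in a short band, 11.6, 5.01 to 22.9). SMAD2 in 18q21.1 had 8 GATA6 and 0 SPDEF peaks, and 18q21.2, with SMAD4 and TCF4, had 19 and 2. The highest SPDEF ratios were those of 12q13.13 with ITGA5, an integrin subunit gene (34 peaks, 11.2, beside 39 GATA6 peaks, 3.33), 20q13.12 with MMP9, a matrix protease gene (22, 5.71), and 15q22.33, which rests on 1 peak (5.58). All of these are counts of whole bands, and whether any of the peaks lies near the named gene was not determined. No SPDEF peak lay in 16q12.2 (MMP2), 18q12.1, 18q21.1 or 9q22.33, and no band was without GATA6 peaks. The miR-200 genes, whose RNAs repress ZEB1 and ZEB2, lie in 12p13.31 (7 SPDEF and 14 GATA6 peaks) and 1p36.33 (3 and 2).

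**Figure D4:**
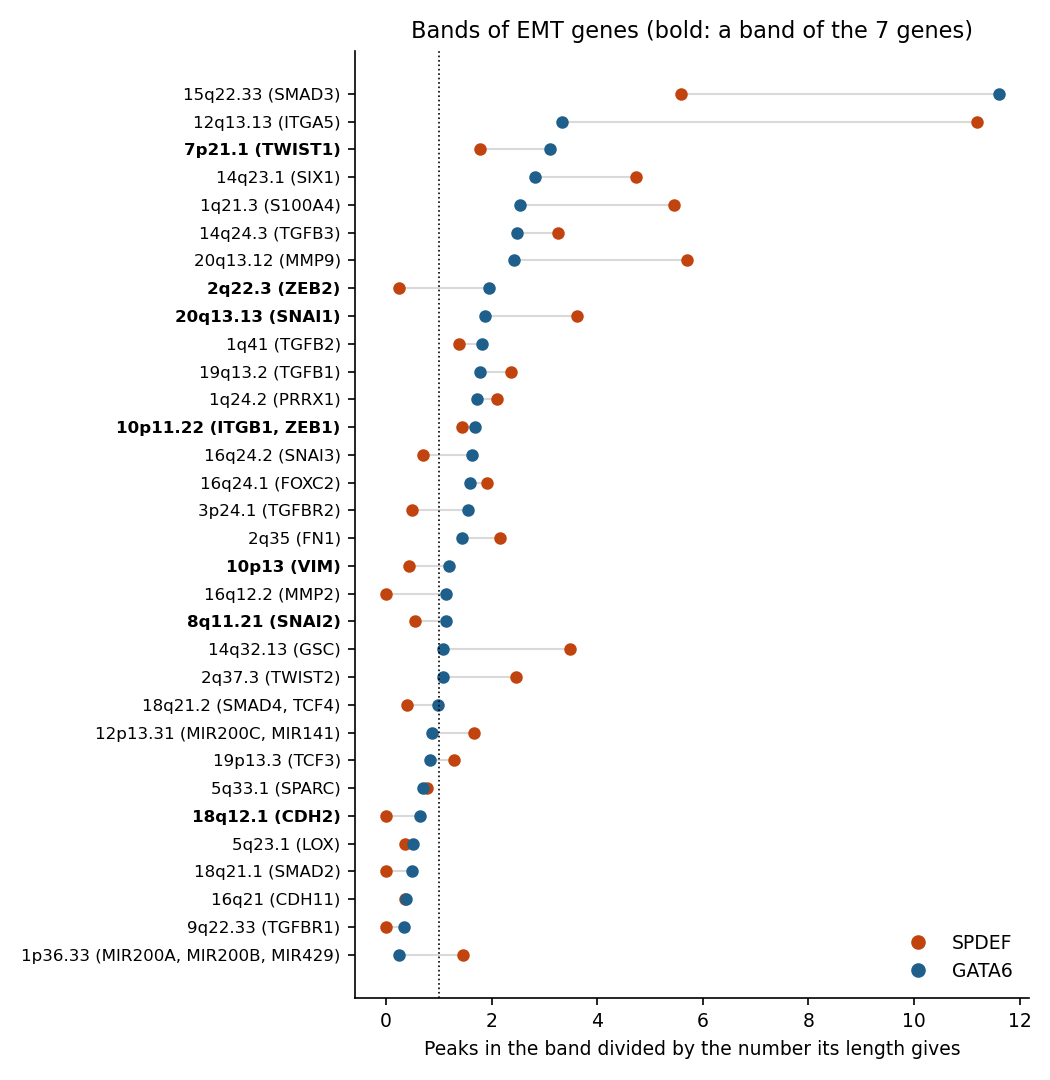
Peaks in each of the 32 bands of EMT genes divided by the number that the length of the band gives, ordered by the GATA6 ratio; the dotted line marks a ratio of 1 and bold names are bands of the 7 genes. GATA6 points run from 0.252 in 1p36.33 to 11.6 in 15q22.33, and 4 SPDEF points lie at 0.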

How the data were processed

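CUT&RUN libraries of HPAF-II cells were analysed from the deposited peak lists, 1 for SPDEF (HA antibody) and 1 for GATA6. Per the submitters' processing notes, Bowtie2 2.4.4, SAMtools 1.14, MACS2 2.2.7.1, deepTools and the builds hg19 and mm10 were used; what each did, and whether the 3 libraries of a target were pooled, is not stated in those notes, nor are control and threshold. The files that the authors deposited hold chromosome, start and end of each peak, with no other measure. No peak ended past an hg19 chromosome (0 peaks). Printed positions count from 1.

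The genes, their hg19 bounds (in kb) and the lists were chosen with earlier results of these data known. Peaks sharing at least 1 bp with a gene widened by 50 kb were members; at least 1 bp shared was an overlap. All members were named by position, with the nearest peak of each list. Of the EMT bands, the 3 highest of each list and those with 0 peaks were named. Other bands, further TWIST1 and ZEB1 peaks and the widest peaks within 500 kb were chosen after their values were seen. Numbers given by length used nuclear peaks (2774 SPDEF and 10669 GATA6) over chromosomes 1 to 22, X and Y. Windows of each size were tiled over chromosomes 1 to 22 and X outside centromeric, variable and stalk bands. They are not centred on genes. Strands of SNAI1, SNAI2 and TWIST1 are textbook knowledge; the others are from RefSeq. EMT genes were tied to bands by name, from GRCh38.p14 positions; all 37 matched. Intervals are exact Poisson or Wilson, at 95%. Counting was tested on planted peaks, and the windows of all 7 genes returned the planted numbers. Tools were Python 3.11.15, numpy 2.4.6, scipy 1.17.1, matplotlib 3.10.9, R 4.3.3, circlize 0.4.16 and GenomeInfoDb 1.38.1.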

Additional observations from a re-analysis of the deposited data

How the results depend on the processing

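No paired analysis was possible because the lists give positions without any value for single libraries. The SPDEF count was 0 in 8 of 9 alternatives, most of which could give no other value. Flanks of 0, 10 and 25 kb and gene bounds widened by 1 kb lie inside the main windows, which held 0. Leaving out peaks under 100 bp, the wider 50% of peaks and stitching add no peak. The flank of 100 kb could have differed and gave 0, where length gives 1.79. With flanks of 500 kb the count was 9, at 4 genes. The GATA6 count of 3 depended on the window: it was 1 (at 1 gene) with 10 kb flanks, 0 (at 0 genes) on the genes alone, 1 with bounds widened by 1 kb and no flank, 1 (at 1 gene) with the wider 50% of peaks, and 36 (at 7 genes) with 500 kb. The 500 kb flank and the widened bounds were chosen after seeing the data. Without peaks under 100 bp the SNAI1 peak was lost and 2 remained. The share of SPDEF members on GATA6 peaks had no value under any flank up to 100 kb or peak filter, for want of members, nor had the share of GATA6 members on the genes alone. Overlap of GATA6 members with SPDEF peaks was 0 with flanks of 10, 25 and 100 kb, both peak filters and both other overlap rules. The 3 members lay 107 kb or more from any SPDEF peak. The 100 kb flank adds 1 GATA6 peak, beside ZEB2, but its windows held 0 SPDEF peaks. Given those positions, the overlap could not have differed in any of these settings. Within 500 kb the overlap was 6 of 36 peaks. The median width was 339 bp, and 380, 359 and 359 bp with 10 kb flanks, 100 kb flanks and without peaks under 100 bp; other settings were not computed. Chromosome rates gave 1.19 SPDEF and 4.71 GATA6 peaks in place of 1.16 and 4.48. With the wider 50% of peaks, 15 and 18 EMT bands exceeded the rate for SPDEF and GATA6, in place of 19 and 22. The length of the SPDEF list limits what can be seen: 1.30 Mb is too little sequence to show depletion.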
